A study of Homo sapiens with 8 samples.

Results

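The genes described here are 48 genes of DNA replication and nucleotide synthesis, chosen by name from the 55765 gene names of the deposited tables. All 48 were found, each as 1 row, and all 48 were expressed well above the filter, a mean TPM of 1 or more (the lowest mean was 14.2 TPM, for CCNE2). Total RNA was sequenced from 2 human acute myeloid leukaemia cell lines: Kasumi-1, which carries the RUNX1-RUNX1T1 fusion, and NB4, a promyelocytic line with the PML-RARA fusion. Each line gave 1 library after 6 h, 1 after 12 h and 1 after 24 h with 40 uM chlorprothixene, a thioxanthene antipsychotic, and 1 untreated library. Both lines were grown in serum-supplemented medium, no vehicle is named, and each line has a single untreated library for all 3 times, so drug and time in culture cannot be told apart.

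Before S phase, the origin recognition complex, CDC6 and CDT1 load rings of MCM2 to MCM7 onto DNA, a step called licensing. CDC45 and the GINS complex then turn the loaded rings into active helicases, primase and the polymerases copy the strands behind them with the help of the sliding clamp PCNA, and ribonucleotide reductase and thymidylate synthase supply the nucleotides. Many of these genes are known targets of E2F transcription factors and are expressed most strongly from late G1 into S phase, and proliferating leukaemia lines express them at high level.

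Levels are TPM, a length-scaled share of all transcripts, with the same total in every library. A change is a treated minus an untreated value of log2(TPM + 1) within a line. No condition has a replicate, so no value below carries a spread between cultures, and the p-values from limma, a linear model fitted over all 14650 tested genes, measure the spread between times or between lines. In bulk RNA, fewer cells in S phase and less of these transcripts per cell cannot be told apart.

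Across the libraries, 13358 to 14582 genes reached 1 TPM, and the commonest ratio of coverage to FPKM, which follows sequencing depth, lay between 7.08 and 9.83. Reads were not counted in these tables, so the depth behind a single value is unknown. KIT, CD34 and RUNX1T1, markers of Kasumi-1, were at or below 0.311 TPM in NB4. In Kasumi-1 (untreated, 6, 12 and 24 h) KIT stood at 450, 72.5, 115 and 192 TPM, CD34 at 112, 18.3, 36.5 and 57.5 TPM and RUNX1T1 at 92.5, 80.9, 58.0 and 81.7 TPM. KIT and CD34 were thus lowest at 6 h and below untreated at every time beside the replication genes, and their part in the results was not tested. Of the granule genes listed for NB4, CTSG was higher in NB4, whereas PRTN3, ELANE and AZU1 were higher in Kasumi-1 at every matched condition. HBA1, MS4A1 and KRT19, markers of other cell types, were listed at 0 in every library, while EPCAM stood at 15.7 to 29.7 TPM. The mitochondrial share of all TPM was 8.73%, 7.94%, 10.6% and 17.1% in Kasumi-1 (untreated, 6, 12 and 24 h), against 5.04% to 6.71% in NB4, so the Kasumi-1 library at 24 h stands apart in this share.

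Together the 48 genes summed to 6453 TPM in untreated Kasumi-1 cells and to 3730, 3548 and 3432 TPM at 6, 12 and 24 h. In NB4 the sum was 6516 TPM untreated and 5713, 4949 and 6167 TPM at 6, 12 and 24 h. The summed level was thus similar in both untreated lines, stayed low in Kasumi-1 at every time, and in NB4 was lowest at 12 h and nearer to the untreated level at 24 h.

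In Kasumi-1, 46 of the 48 genes were lower than untreated at all 3 times, against 36% of all tested genes, and 28 of 48 were at least 1.5-fold lower at all 3 times, against 4.89%. None was higher at all 3 times (28.2%) or at least 1.5-fold higher at all 3 times (5.49%). By time, 47 genes were lower at 6 h (50.9% of all tested genes), 47 at 12 h (56.3%) and 48 at 24 h (53.4%), and 18 were at least 2-fold lower at 24 h (3.88%), with 0 at least 2-fold higher (5.11%). The genes not lower were GINS4 at 6 h and TK1 at 12 h. Without the 24 h library, 46 genes were lower at both remaining times (43.6% of all tested genes) and 29 at least 1.5-fold lower at both (7.47%). The median change over the 48 genes was -0.76, -0.81 and -0.86 at 6, 12 and 24 h, and over all tested genes -0.01, -0.08 and -0.04. The 24 h values stand beside the 17.1% mitochondrial share of that library: with TPM recomputed without mitochondrial and the most abundant genes, the median at 24 h was -0.73 and 11 genes were at least 2-fold lower.

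In NB4, 29 of the 48 were lower at all 3 times, against 32.2% of all tested genes, none was at least 1.5-fold lower at all 3 times (3.37%), and 7 were higher at all 3 times (30.6%), none of them at least 1.5-fold (5.6%). By time, 35 genes were lower at 6 h (50.5% of all tested genes), 40 at 12 h (47.1%) and 32 at 24 h (49.5%), none of them at least 2-fold lower at 24 h (2.88%). The median change was -0.19, -0.34 and -0.07 at 6, 12 and 24 h. These counts of lower and higher genes go by sign alone and take in changes next to 0. Examples are POLD1 (-0.00015), CHAF1A (-0.002) and MCM4 (-0.01) at 24 h, and CDC6 (0.03) at 12 h. From 12 h to 24 h, a comparison added after the values were seen, 20 of the 48 were higher at the later time in Kasumi-1 (51% of all tested genes), against 42 of 48 in NB4 (44.8%), where the median difference was 0.28. Set against 6 h, also added after the values were seen, 13 genes were higher at 24 h in Kasumi-1 (43.7%) and 31 in NB4 (48.3%).

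**Figure D1:**
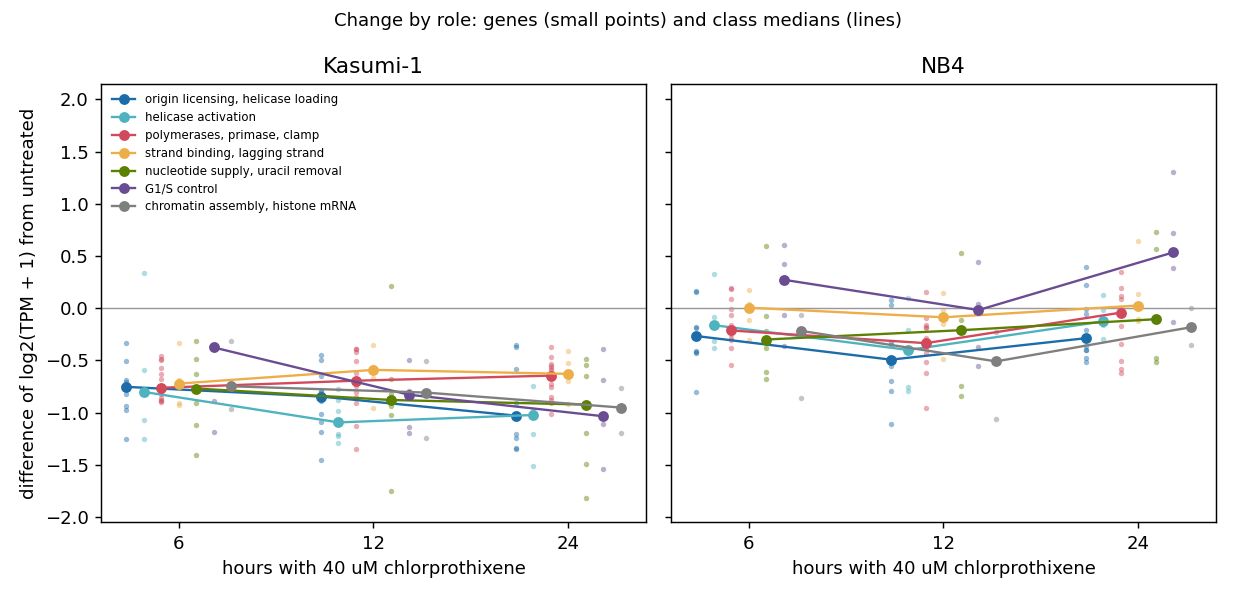
Difference of log2(TPM + 1) between treated and untreated libraries (vertical axis) at 6, 12 and 24 h of 40 uM chlorprothixene (horizontal axis, equally spaced, with points set side by side by role) in Kasumi-1 (left) and NB4 (right). Small points are genes, large points joined by lines are class medians, and colours are the 7 roles. The Kasumi-1 medians lie between -0.38 and -1.09, and the NB4 medians between -0.51 and 0.53.

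Within a line, limma compared treated with untreated libraries using the 3 times as repeats. In Kasumi-1, 2 of the 48 genes fell at an adjusted p under 0.05 (0.109% of all tested genes), UNG and MCM2, and 40 of 48 were lower at an unadjusted p under 0.05 (12% of all tested genes), with 0 higher (8.18%). In NB4, limma called 0 of the 48 in either direction (0.177% of all tested genes lower and 0.621% higher), with 10 lower (6.86%) and 0 higher (8.3%) at an unadjusted p under 0.05. The 2 calls in Kasumi-1 rest on few residual degrees of freedom. Leaving out any treated NB4 library, or the 12 h library of Kasumi-1, gave 0 calls. Leaving out the 6 h library of Kasumi-1 gave 1, and leaving out its 24 h library gave 3. The count was 8 with no filter on low values and 1 with median-centred values. The 10 lower in NB4 became 3 without NB4 at 12 h.

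For the change shared by both lines, the mean of the 3 times with cell line as a term, limma called 0 of the 48 lower (0% of all tested genes) and 0 higher (0.0273%). At an unadjusted p under 0.05, 27 of 48 were lower (11.1% of all tested genes) and 0 higher (9.3%). Leaving out the untreated library of a line reduces the estimate to the mean change of the other line alone. Such a fit is no check of a change shared by both lines. The 27 became 7 with no cell line term. The genes nearest to the threshold were PRIM1 (log2 -0.82, SE 0.14, adjusted p = 0.0798 by limma), MCM2 (log2 -0.97, SE 0.19, adjusted p = 0.0869 by limma) and UNG (log2 -1.16, SE 0.24, adjusted p = 0.0953 by limma). Without untreated Kasumi-1 the estimate, then the NB4 change alone, was -0.58 for MCM2 and -0.66 for UNG. Without untreated NB4 it was the Kasumi-1 change alone, -1.35 for MCM2 and -1.66 for UNG. Over all alternatives, the limma adjusted p ran from 0.0649 to 1 for PRIM1, from 0.0502 to 1 for MCM2 and from 0.0512 to 1 for UNG.

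The promoters of 42 of the 48 genes were found in RefSeq's table of 300 bases around each gene start (250 before, 50 after, GRCh38.p14). They were searched on both strands for the E2F motif, written as TTTGGCGC, TTTCGCGC, TTTGCCGC or TTTCCCGC. It was present in 20 of the 42 (47.6%) and in 3.33% of all 27305 promoters in the table. By role, it was present in 6 of 8 licensing genes, 3 of 5 helicase activation genes, 6 of 13 polymerase and clamp genes, 1 of 6 nucleotide genes, 3 of 4 G1/S genes, 1 of 3 lagging-strand genes and 0 of 3 chromatin genes. The CCAAT box (CCAAT) was present in 23 of the 42 (54.8%) and in 35.7% of all promoters, and the CHR element (TTTGAA) in 1 of 42 (2.38%) and 15.4%. The mean change in Kasumi-1 had a median of -0.90 over the 20 genes with an E2F motif and of -0.69 over the 22 without. In NB4 the same medians were -0.21 and -0.15. A match is a run of letters and not a measured binding site.

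For each of the licensing, polymerase, G1/S and nucleotide classes, the promoter of the gene with the lowest mean change in Kasumi-1 among those in the table is given, 5′ to 3′, with E2F motif matches in capitals. MCM2 (chr3:127598161-127598460, plus strand) holds overlapping matches that start 3 and 7 bases into the transcribed side. POLA1 (chrX:24693668-24693967, plus strand) and CDC25A (chr3:48188368-48188667, minus strand) hold 1 match each, at -137 and -44 from the gene start. UNG (chr12:109097347-109097646, plus strand), the gene with the lowest mean change of all 48 in Kasumi-1, holds none of these spellings in the window.
MCM2: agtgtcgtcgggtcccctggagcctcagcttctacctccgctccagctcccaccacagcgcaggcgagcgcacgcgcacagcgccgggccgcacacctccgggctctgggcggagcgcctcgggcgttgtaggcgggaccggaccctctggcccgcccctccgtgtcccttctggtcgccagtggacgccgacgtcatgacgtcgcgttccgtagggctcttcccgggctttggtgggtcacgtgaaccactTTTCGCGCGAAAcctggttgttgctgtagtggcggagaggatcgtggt
POLA1: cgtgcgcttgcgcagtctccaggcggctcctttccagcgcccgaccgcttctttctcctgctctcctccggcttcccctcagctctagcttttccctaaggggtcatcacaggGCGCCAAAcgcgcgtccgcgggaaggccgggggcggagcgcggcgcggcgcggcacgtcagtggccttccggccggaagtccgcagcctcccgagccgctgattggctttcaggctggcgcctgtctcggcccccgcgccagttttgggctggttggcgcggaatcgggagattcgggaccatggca
CDC25A: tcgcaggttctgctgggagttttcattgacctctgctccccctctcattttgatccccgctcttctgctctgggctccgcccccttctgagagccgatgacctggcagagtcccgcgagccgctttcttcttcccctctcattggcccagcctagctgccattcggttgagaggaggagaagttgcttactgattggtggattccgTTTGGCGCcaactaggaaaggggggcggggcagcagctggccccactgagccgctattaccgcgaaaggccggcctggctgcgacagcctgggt
UNG: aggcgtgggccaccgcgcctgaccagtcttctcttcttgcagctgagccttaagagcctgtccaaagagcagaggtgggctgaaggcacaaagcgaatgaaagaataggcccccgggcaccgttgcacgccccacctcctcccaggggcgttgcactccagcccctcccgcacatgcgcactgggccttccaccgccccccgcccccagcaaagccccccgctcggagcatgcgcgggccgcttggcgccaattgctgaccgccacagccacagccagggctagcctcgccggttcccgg

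Licensing and helicase loading genes were lower in all 3 Kasumi-1 libraries for 10 of 10 members (36% of all tested genes). In NB4 this held for 8 of 10 (32.2%), with CDC6 and ORC6 the exceptions. Values per library are given in the order untreated, 6, 12 and 24 h, and coordinates are those of the tables (hg19). MCM2, a subunit of the MCM ring (chromosome 3, 127317066 to 127341276), stood at 236, 98.4, 85.3 and 92.2 TPM in Kasumi-1, against 324, 241, 186 and 225 TPM in NB4. MCM5, another subunit of the ring (chromosome 22, 35796056 to 35821423), stood at 167, 86.9, 82.5 and 65.4 TPM in Kasumi-1, against 132, 75.5, 60.7 and 100.2 TPM in NB4. Both were below untreated in all 6 treated libraries and had their NB4 minimum at 12 h. In the Kasumi-1 test MCM2 fell (log2 -1.35, SE 0.19, adjusted p = 0.0443 by limma, 3 of 3 libraries lower), and its adjusted p ran from 0.0314 to 0.158 over the alternatives. MCM5 did not pass in Kasumi-1 (log2 -1.09, SE 0.28, adjusted p = 0.102 by limma, 0.0911 to 0.205 over the alternatives), nor did MCM4 (log2 -1.13, SE 0.19, adjusted p = 0.0616 by limma, 0.0506 to 0.181).

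MCM4 stood at 271, 137, 118 and 114 TPM in Kasumi-1, against 219.6, 181, 175 and 218 TPM in NB4, where the 24 h value was next to the untreated one. For MCM6 the levels were 217, 132, 117 and 106 TPM in Kasumi-1 and 283, 209, 173 and 213 TPM in NB4. MCM3 had 248, 139, 142 and 121 TPM in Kasumi-1 and 382, 334, 299 and 368 TPM in NB4. In each of these 3 subunits, the treated Kasumi-1 library was below the NB4 library of the same time. MCM7, which also hosts microRNAs in its introns, had 500.5, 310.4, 234 and 266 TPM in Kasumi-1 and 614, 513, 435 and 531 TPM in NB4. Among the 6 subunits, MCM7 had the highest and MCM5 the lowest TPM in all 8 libraries. The 6 summed to 1640 TPM untreated and to 905, 779 and 764 TPM in treated Kasumi-1, and to 1954 TPM untreated and 1554, 1330 and 1655 TPM in treated NB4.

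CDC6, an ATPase that helps to load the ring (chromosome 17, 38443885 to 38459171), stood at 115, 67.2, 65.3 and 49.2 TPM in Kasumi-1, against 65.4, 72.8, 66.6 and 86.2 TPM in NB4. Its 3 treated values lay below untreated in Kasumi-1 and above it in NB4. CDT1, the MCM chaperone of the loading step, had 108, 85.7, 68.4 and 83.2 TPM in Kasumi-1 and 163, 144, 116 and 117 TPM in NB4, with mean log2 changes of -0.45 in Kasumi-1 and -0.38 in NB4. ORC1, the largest subunit of the origin recognition complex, had 86.2, 51.1, 60.7 and 57.2 TPM in Kasumi-1 and 68.5, 51.3, 46.4 and 52.9 TPM in NB4. ORC6, its smallest subunit, had 92.1, 64.6, 67.2 and 71.8 TPM in Kasumi-1 and 89.8, 101, 94.8 and 105 TPM in NB4, again below untreated in Kasumi-1 and above it in NB4.

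**Figure D2:**
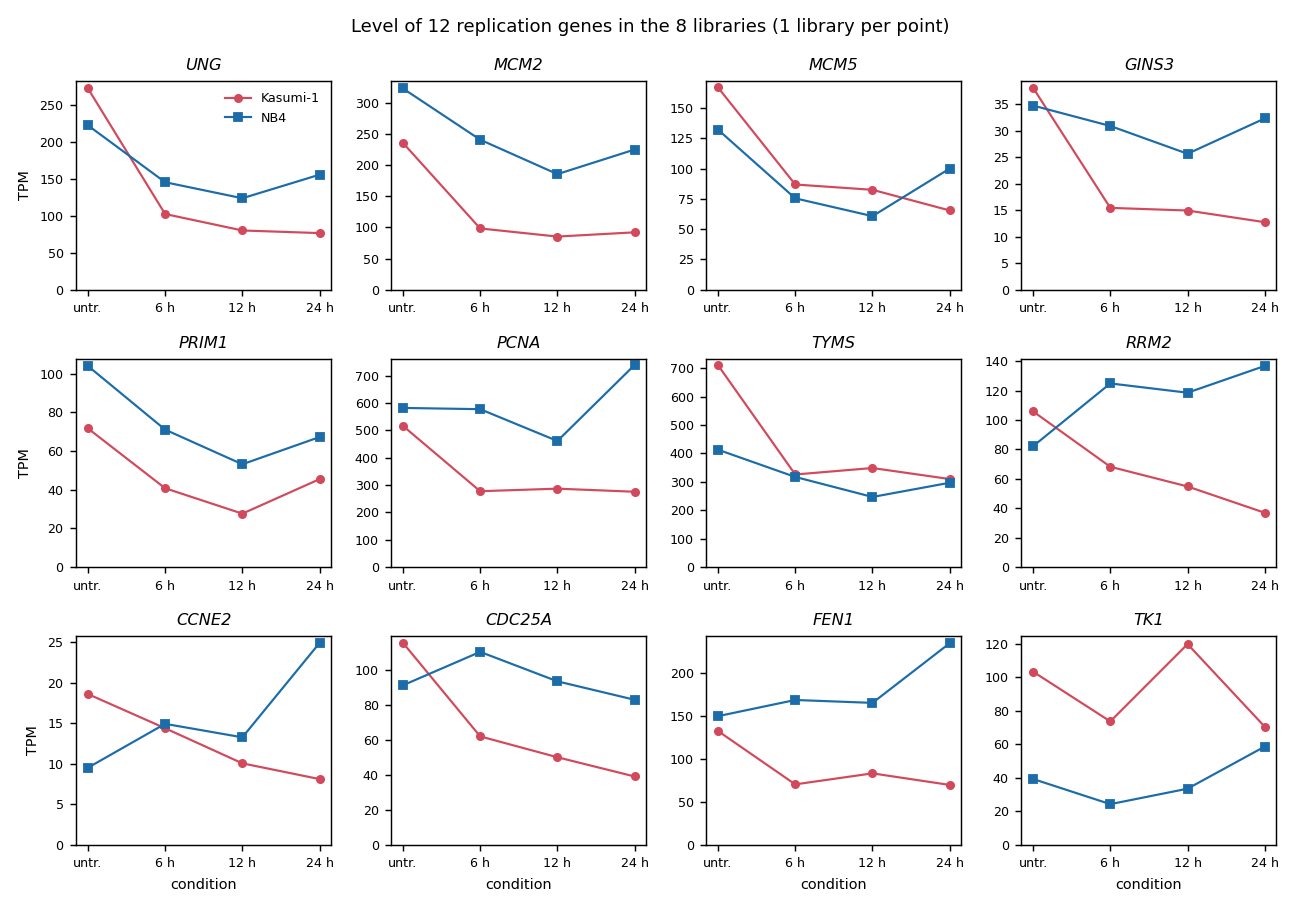
TPM (vertical axis, from 0, scale per panel) of 12 of the genes in the untreated, 6, 12 and 24 h libraries (horizontal axis) of Kasumi-1 (red circles) and NB4 (blue squares), with 1 library per point. UNG, MCM2, MCM5, GINS3, PRIM1 and TYMS were below untreated in all 6 treated libraries, whereas RRM2, CCNE2 and FEN1 were lower in every treated Kasumi-1 library and higher in every treated NB4 library.

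Helicase activation genes had a median change at 6, 12 and 24 h of -0.80, -1.09 and -1.02 in Kasumi-1, against -0.16, -0.40 and -0.13 in NB4. GINS3 (chromosome 16, 58328984 to 58440048), whose deposited coverage is low for its FPKM in every library, stood at 38.1, 15.4, 14.9 and 12.7 TPM in Kasumi-1, against 34.8, 30.9, 25.7 and 32.4 TPM in NB4. GINS2 stood at 52.98, 24.7, 22.4 and 22.5 TPM in Kasumi-1, against 48.1, 36.8, 27.3 and 42.8 TPM in NB4. Both encode subunits of the GINS complex and were more than 2-fold lower at every time in Kasumi-1, but neither passed the Kasumi-1 test (log2 -1.35, SE 0.21, adjusted p = 0.0595 for GINS3 and log2 -1.16, SE 0.25, adjusted p = 0.0858 for GINS2, by limma). For GINS3 the adjusted p over the alternatives ran from 0.0334 to 0.172. GINS1 had 47.7, 27.3, 23.6 and 22.99 TPM in Kasumi-1 and 28, 35.4, 30.1 and 30.6 TPM in NB4, below untreated in Kasumi-1 and above it in NB4 at each time. GINS4, the remaining subunit, had 11.02, 14.2, 6.02 and 6.15 TPM in Kasumi-1 and 31.3, 27.9, 26.98 and 25.4 TPM in NB4. It was the only one of the 48 genes above its untreated level in Kasumi-1 at 6 h, and was below it at 12 and 24 h. Relative to the commonest ratio of a library, its coverage to FPKM was highest in that 6 h library (0.607). It was lowest in Kasumi-1 at 24 h (0.363), and the part of this spread in the GINS4 values was not tested.

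MCM10, which helps to start the helicase, had 64.7, 36.3, 27.2 and 31.3 TPM in Kasumi-1 and 35.2, 33.1, 26.9 and 31.6 TPM in NB4. CDC45, the helicase partner of GINS and the MCM ring, had 123, 81.1, 66.4 and 61.9 TPM in Kasumi-1 and 64.1, 51.2, 37.5 and 63.3 TPM in NB4. In untreated cells both were higher in Kasumi-1, and at 12 h MCM10 was at about the same level in both lines.

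Of the 13 polymerase, primase, clamp and clamp loader genes, 8 were below untreated in all 3 NB4 libraries (32.2% of all tested genes). In Kasumi-1 all 13 were below untreated in all 3 libraries (36%). Their median change in Kasumi-1 was -0.76, -0.69 and -0.65 at 6, 12 and 24 h, whereas that of the licensing genes was -0.75, -0.85 and -1.03 and that of the nucleotide genes -0.77, -0.88 and -0.92. The 3 classes thus had nearly the same median at 6 h, and at 24 h the polymerase class had the smallest change of the 3. The nucleotide class includes UNG, which removes uracil from DNA and changed by -1.405 at 6 h and -1.82 at 24 h. Without UNG, the middle nucleotide gene was RRM2 at 6 h (-0.63) and RRM1 at 24 h (-0.65). The nucleotide and polymerase classes were then level at 24 h. These are medians over 13, 10 and 6 genes of single libraries, and the difference between classes was not tested. At 24 h, 6 of 10 licensing genes, 1 of 13 polymerase genes and 3 of 6 nucleotide genes were at least 2-fold lower in Kasumi-1. The share over all tested genes was 3.88%, and UNG was 1 of the 3 nucleotide genes. MCM3 (-1.03), MCM6 (-1.025) and RFC3 (-1.01) lay just past this limit, and MCM7 (-0.91) and PCNA (-0.90) just short of it. With TPM recomputed without mitochondrial and the most abundant genes, the count over all 48 genes fell from 18 to 11. That count was not split by class.

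PRIM1, the catalytic subunit of primase (chromosome 12, 57125380 to 57146157), stood at 71.8, 40.8, 27.6 and 45.5 TPM in Kasumi-1, against 104, 71.1, 53.2 and 67.3 TPM in NB4, with the minimum at 12 h in both lines. PRIM2, the large subunit of primase, likewise with low coverage for its FPKM in every library, stood at 31.9, 19.6, 18.6 and 18.5 TPM in Kasumi-1, against 21.5, 24.7, 23.98 and 23.4 TPM in NB4. The primase subunits therefore differed in NB4, where PRIM1 was lower and PRIM2 higher than untreated at every time. PRIM1 overlaps NACA by 33 bases on the same strand, with mean levels of 60.15 TPM for PRIM1 and 907.6 TPM for NACA. The part of NACA in the PRIM1 values was not tested. POLA1, the catalytic subunit of polymerase alpha, had 42.9, 23.1, 19.05 and 22.9 TPM in Kasumi-1 and 32.1, 26.9, 24.4 and 25.1 TPM in NB4. POLA2, its accessory subunit, had 38.3, 20.1, 23.3 and 20.8 TPM in Kasumi-1 and 51.6, 44.3, 44.95 and 50.04 TPM in NB4. Both were lower than untreated in all 6 treated libraries.

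For the polymerases that extend the primers, delta and epsilon, the mean change in Kasumi-1 was -0.46 for POLD1, -0.62 for POLE and -0.58 for POLE2, against -0.93 for PRIM1 and -0.96 for POLA1. POLD1, the catalytic subunit of delta, had 167, 122, 127 and 115 TPM in Kasumi-1 and 167, 143, 147 and 167 TPM in NB4. POLE, the catalytic subunit of epsilon, had 222, 149, 118 and 171 TPM in Kasumi-1 and 89.05, 84.97, 79.6 and 102 TPM in NB4. POLE2, a further subunit of epsilon, had 26.8, 18.8, 16.3 and 17.9 TPM in Kasumi-1 and 41.5, 47.4, 38.9 and 39.9 TPM in NB4. POLE was higher and POLE2 lower in Kasumi-1 at every matched condition.

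PCNA, the sliding clamp (chromosome 20, 5095599 to 5107272), stood at 517, 278, 287 and 276 TPM in Kasumi-1, against 582, 578, 462 and 739.9 TPM in NB4. It was nearly level over the 3 treated Kasumi-1 libraries and did not pass the Kasumi-1 test (log2 -0.88, SE 0.24, adjusted p = 0.118 by limma), and in NB4 its highest value was at 24 h. RFC3, a clamp loader subunit, had 51.3, 27.4, 28.9 and 24.9 TPM in Kasumi-1 and 148, 119.7, 110 and 98.7 TPM in NB4. RFC2 had 46.3, 25.8, 35.2 and 30.3 TPM in Kasumi-1 and 103, 109, 66.7 and 109 TPM in NB4. RFC3 and RFC2 were at least 1.5-fold lower in Kasumi-1 than in NB4 at every matched condition, treated or not. RFC1, the large subunit, had 79.2, 55.9, 58.9 and 56.9 TPM in Kasumi-1 and 113, 86.9, 79.1 and 79.3 TPM in NB4, and was the only one of the 48 genes whose mean change was not more negative in Kasumi-1 (-0.46) than in NB4 (-0.47). RFC4 had 139, 81.3, 90.02 and 92.98 TPM in Kasumi-1 and 93.5, 76.6, 76.5 and 83.04 TPM in NB4. RFC5 had 83.4, 53.6, 58.4 and 49.95 TPM in Kasumi-1 and 86.2, 76.8, 66.8 and 83.8 TPM in NB4. RFC1, RFC3, RFC4 and RFC5 were below untreated in all 6 treated libraries.

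**Figure D3:**
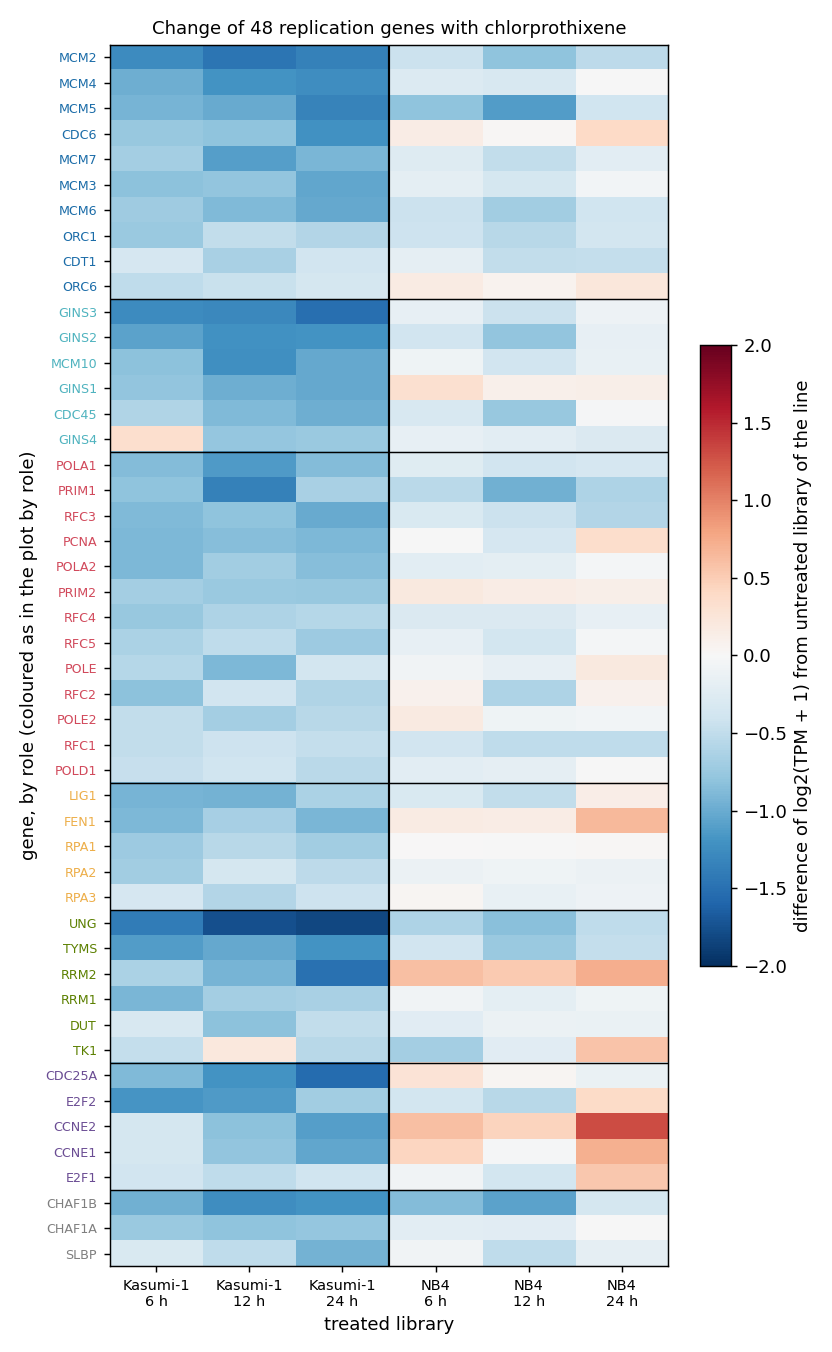
Difference of log2(TPM + 1) between each treated library and its untreated one (colour, blue lower and red higher) for the 48 genes (rows, by role and then by mean change in Kasumi-1) in the 6 treated libraries (columns). In Kasumi-1 the values above 0 are GINS4 at 6 h (0.34) and TK1 at 12 h (0.21), and in NB4 35, 40 and 32 of the 48 genes are below 0 at 6, 12 and 24 h.

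The strand-binding and lagging-strand genes had a median change at 6, 12 and 24 h of -0.72, -0.59 and -0.63 in Kasumi-1, against 0.00, -0.09 and 0.03 in NB4. All 5 were below untreated at all 3 times in Kasumi-1 (36% of all tested genes), and 1 of 5 in NB4 (32.2%). LIG1, the ligase that joins Okazaki fragments, had 91.8, 47.7, 46.97 and 59.01 TPM in Kasumi-1 and 146, 117, 104 and 159.6 TPM in NB4. RPA1, the large subunit of the single-strand binding protein, had 53.4, 31.96, 35.9 and 32.6 TPM in Kasumi-1 and 62.5, 62.7, 61.9 and 63.6 TPM in NB4, where its 4 values differed by less than 2 TPM. RPA2, the middle subunit, had 181, 112, 142 and 125 TPM in Kasumi-1 and 127, 118, 119.8 and 117 TPM in NB4. RPA3, the small subunit, had 28.8, 22.6, 18.8 and 21.5 TPM in Kasumi-1 and 32.1, 32.9, 28.8 and 29.7 TPM in NB4. RPA3 overlaps RPA3-AS1 on the opposite strand, and all 3 RPA genes were below untreated in every treated Kasumi-1 library. FEN1, the flap endonuclease (chromosome 11, 61560109 to 61564716), had 133, 70.4, 83.3 and 69.7 TPM in Kasumi-1 and 150.1, 169, 166 and 235 TPM in NB4. FEN1 overlaps the fatty acid desaturase gene FADS2 by 4265 bases on the same strand, so the assignment of reads between them is uncertain. FADS2 had 299.8, 584, 480 and 479.8 TPM in Kasumi-1 and 305, 807, 982 and 1307 TPM in NB4, and its part in the FEN1 values was not tested.

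In Kasumi-1, 5 of 6 nucleotide genes were below untreated at all 3 times (36% of all tested genes). In NB4, 4 of 6 were (32.2%). UNG, the glycosylase that removes uracil from DNA (chromosome 12, 109535379 to 109548797), stood at 273, 102, 80.1 and 76.6 TPM in Kasumi-1, against 223, 146, 124 and 156 TPM in NB4. It fell in Kasumi-1 (log2 -1.66, SE 0.21, adjusted p = 0.036 by limma, 3 of 3 libraries lower), and its adjusted p over the alternatives ran from 0.0278 to 0.143. UNG was also below untreated in 3 of 3 NB4 libraries. TYMS, thymidylate synthase, the enzyme that makes dTMP (chromosome 18, 657604 to 673578), stood at 710.4, 326, 349 and 309.7 TPM in Kasumi-1, against 413, 317, 247 and 297 TPM in NB4. TYMS was higher in untreated Kasumi-1 than in untreated NB4, at 6 h the levels were close, and it did not pass the Kasumi-1 test (log2 -1.11, SE 0.18, adjusted p = 0.0615 by limma, 0.0499 to 0.172 over the alternatives). TYMS overlaps ENOSF1 on the opposite strand, and strand-specific counting is not stated.

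RRM1, the large subunit of ribonucleotide reductase, had 138, 73.05, 85.9 and 87.7 TPM in Kasumi-1 and 134, 127, 117 and 126 TPM in NB4. RRM2, its small S-phase subunit (chromosome 2, 10262455 to 10271545), had 106, 68.2, 54.8 and 36.9 TPM in Kasumi-1 and 82.2, 125, 119 and 137 TPM in NB4. RRM2 was below untreated at every time in Kasumi-1, with the lowest value at 24 h (log2 -1.02, SE 0.30, adjusted p = 0.133 by limma in the Kasumi-1 test), and above untreated at every time in NB4. At 24 h RRM2 was below RRM1 in Kasumi-1 and above it in NB4. DUT, the dUTPase, had 186, 149, 105 and 132 TPM in Kasumi-1 and 244, 209, 225 and 224 TPM in NB4. TK1, cytosolic thymidine kinase, had 103, 73.7, 120 and 70.5 TPM in Kasumi-1 and 39.3, 24.2, 33.5 and 58.7 TPM in NB4. In Kasumi-1 it was above untreated at 12 h only, and in NB4 at 24 h only. Named pseudogenes of PCNA, FEN1, RRM2 and DUT reached at most 0.142, 0.123, 1.88 and 1.02 TPM in any library.

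In NB4, 0 of 5 G1/S control genes were below untreated in all 3 libraries (32.2% of all tested genes). In Kasumi-1 all 5 were (36%). Their median change at 6, 12 and 24 h was -0.38, -0.83 and -1.03 in Kasumi-1, against 0.27, -0.02 and 0.53 in NB4. CCNE2, cyclin E2 (chromosome 8, 95891998 to 95908906), stood at 18.6, 14.4, 10.03 and 8.09 TPM in Kasumi-1, against 9.49, 14.9, 13.2 and 24.9 TPM in NB4. CCNE1, cyclin E1, stood at 43.1, 33.5, 24.6 and 20.5 TPM in Kasumi-1, against 23.6, 32.1, 23.3 and 39.5 TPM in NB4. Both cyclins, which activate CDK2 at the start of S phase, were lower at each later time in Kasumi-1 and highest at 24 h in NB4. CCNE2, which overlaps INTS8 on the opposite strand, was the only one of the 48 that was at least 2-fold higher than untreated at 24 h in NB4 (6.51% of all tested genes).

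CDC25A, the phosphatase that activates CDK2 (chromosome 3, 48198636 to 48229892), had 116, 62.04, 50.1 and 39.1 TPM in Kasumi-1 and 91.3, 110.5, 93.6 and 83 TPM in NB4 and did not pass the Kasumi-1 test (log2 -1.21, SE 0.27, adjusted p = 0.0882 by limma). E2F1, an activating E2F, had 65.6, 50.3, 46.1 and 49.7 TPM in Kasumi-1 and 55.9, 53.2, 43.01 and 81.4 TPM in NB4. E2F2, a close relative, had 28.8, 12.1, 12.5 and 17.5 TPM in Kasumi-1 and 15.9, 12.1, 10.5 and 21.01 TPM in NB4. E2F1 and E2F2 were above untreated only at 24 h in NB4, among the 6 treated libraries. Of the chromatin genes, CHAF1B, a subunit of the histone chaperone CAF-1, had 31.8, 15.8, 12.9 and 13.3 TPM in Kasumi-1 and 26.5, 14.2, 12.2 and 20.5 TPM in NB4. CHAF1A, its large subunit, had 109, 64.6, 61.9 and 63.7 TPM in Kasumi-1 and 68.2, 58.5, 57.8 and 68.04 TPM in NB4. SLBP, which binds the stem-loop of histone mRNAs, had 141, 113, 98.5 and 72.2 TPM in Kasumi-1 and 357, 342, 251 and 315 TPM in NB4. All 3 were below untreated in every treated library of both lines (16.9% of all tested genes). CHAF1A in NB4 at 24 h was next to its untreated level (log2 -0.002). CHAF1B overlaps MORC3 by 771 bases on the same strand, with mean levels of 18.4 TPM for CHAF1B and 36.07 TPM for MORC3. The part of MORC3 in the CHAF1B values was not tested.

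The response of the lines was compared directly. The mean change was more negative in Kasumi-1 than in NB4 for 47 of the 48 genes, against 54.6% of all tested genes. The limma test of the response difference, Kasumi-1 minus NB4, called 0 of 48 (0.0887% of all tested genes lower and 0.041% higher), with 20 of 48 lower (6.37%) and 0 higher (4.22%) at an unadjusted p under 0.05. The median difference was -0.60 over the 48 genes and -0.06 over all tested genes. RRM2 had the largest difference (log2 -1.64, SE 0.42, adjusted p = 0.303 by limma), followed by CCNE2 (log2 -1.54, SE 0.56, adjusted p = 0.413 by limma) and CDC25A (log2 -1.26, SE 0.38, adjusted p = 0.336 by limma). The ranges of adjusted p over the alternatives were 0.152 to 0.554, 0.323 to 0.573 and 0.265 to 0.573. PRIM2 (log2 -0.88, SE 0.24, adjusted p = 0.315 by limma) passed without a filter on low values (adjusted p = 0.0367 by limma; 0.0367 to 0.562 over the alternatives). In 7 of 48 genes all 3 times were lower in Kasumi-1 and higher in NB4 (6.7% of all tested genes), and 28 of 48 were lower at all 3 times in both lines (16.9%). Across the 48 genes the mean changes of the lines had a Pearson r of 0.293 and a Spearman rho of 0.336, close to 0.335 and 0.343 across all tested genes. The 3 changes of a line share its untreated library, and genes are not independent replicates.

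**Figure D4:**
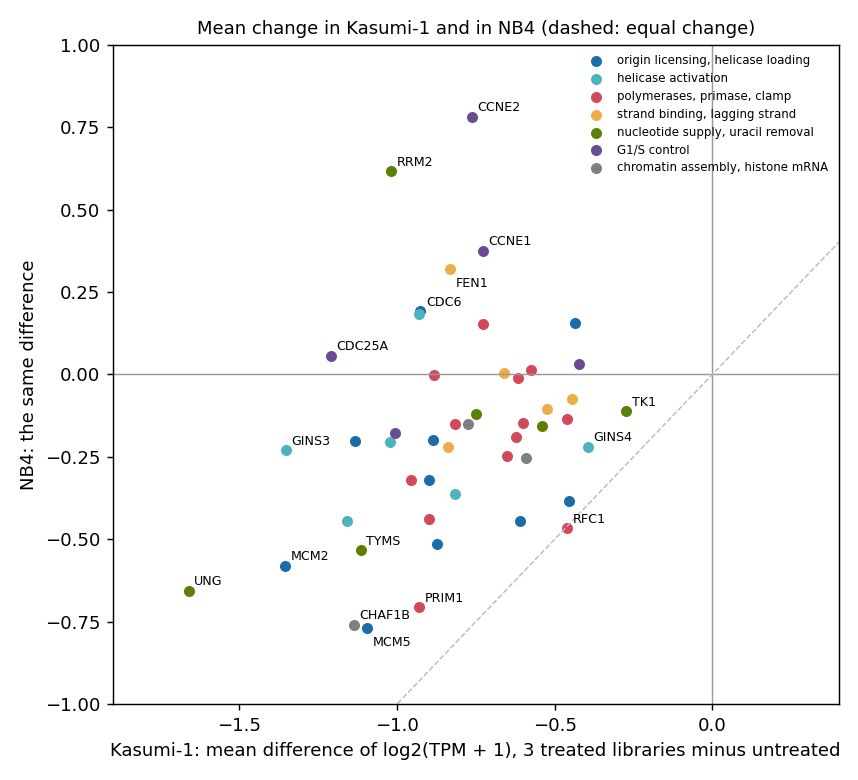
Mean difference of log2(TPM + 1) between the 3 treated libraries and the untreated library in Kasumi-1 (horizontal axis) and NB4 (vertical axis), with 1 point per gene coloured by role and a dashed line of equal change. All 48 points are below 0 in Kasumi-1, 36 are below 0 in NB4, and all but RFC1 lie above the dashed line.

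Levels also differed between the lines. Over the 4 conditions, limma called 22 of 48 lower in Kasumi-1 than in NB4 (27.5% of all tested genes) and 3 higher (27.8%), and at an unadjusted p under 0.05 it called 25 lower (30.4%) and 3 higher (30.6%). This test includes the treated libraries, so its calls can hold part of the change with treatment. GINS3, ORC6 and RRM1 were among the 22 called lower (log2 -0.71, -0.41 and -0.43). Without treatment they were not lower in Kasumi-1 (log2 0.13, 0.04 and 0.04 against NB4). The other members called lower were lower in untreated Kasumi-1 as well. In untreated cells alone, 28 of the 48 were higher in Kasumi-1 than in NB4 (52.5% of all tested genes). The largest differences were RFC3 (log2 -1.86, SE 0.13, adjusted p = 4.09e-05 by limma), SLBP (log2 -1.59, SE 0.15, adjusted p = 0.00018 by limma), GINS4 (log2 -1.56, SE 0.20, adjusted p = 0.000742 by limma) and RFC2 (log2 -1.47, SE 0.20, adjusted p = 0.000972 by limma), all lower in Kasumi-1 in 4 of 4 conditions. TK1 (log2 1.25, SE 0.25, adjusted p = 0.00482 by limma), POLE (log2 0.85, SE 0.14, adjusted p = 0.00228 by limma) and CDC45 (log2 0.59, SE 0.17, adjusted p = 0.0248 by limma) were the 3 higher in Kasumi-1. CDC45 was higher in 3 of 4 conditions and lower at 24 h. Its adjusted p by limma was 0.062 with no filter on low values. Leaving out a library gave 0.0776 (untreated), 0.0763 (6 h) and 0.101 (12 h) for Kasumi-1, and 0.0769, 0.0759 and 0.1 for the same libraries of NB4, all by limma. Leaving out either library of a condition removes the same pair from the comparison of the lines, so the 2 values of a condition are 1 check. The adjusted p of the other 6 stayed at or under 0.0246 in all 14 alternatives run, which include both fits of each such pair.

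Of 74 further genes of replication, nucleotide metabolism and S-phase entry, all tested, limma called 0 in the shared, Kasumi-1, NB4 and response difference tests. At an unadjusted p under 0.05, 37 were lower (12% of all tested genes) and 2 higher (8.18%) in Kasumi-1, and 9 lower (6.86%) and 3 higher (8.3%) in NB4. The line difference test called 32 of the 74 lower (27.5%) and 10 higher (27.8%) at an adjusted p under 0.05 by limma. Their median change at 6, 12 and 24 h was -0.50, -0.54 and -0.43 in Kasumi-1, against -0.06, -0.13 and -0.08 in NB4. CDKN1A, the CDK inhibitor p21, had the largest shared estimate of the 74 and stood at 8.81, 37.3, 49.04 and 12.4 TPM in Kasumi-1, against 0.344, 7.88, 23.5 and 30.1 TPM in NB4. It was above untreated in all 6 treated libraries, highest at 12 h in Kasumi-1 and at 24 h in NB4. Its shared estimate (log2 2.70) averages unlike mean changes, 1.59 in Kasumi-1 and 3.815 in NB4. The NB4 change rests on 1 untreated library in which CDKN1A was near 0. UHRF1, which recognises hemimethylated DNA behind the fork, stood at 157, 67.4, 49.1 and 45.7 TPM in Kasumi-1, against 89.5, 76.3, 74.8 and 85.5 TPM in NB4. DTL, the adaptor of the ubiquitin ligase that removes CDT1, stood at 42.5, 25.8, 15.9 and 30.01 TPM in Kasumi-1, against 32.97, 16.7, 15.4 and 22.4 TPM in NB4. ORC5, an origin recognition subunit, stood at 58.4, 31.7, 31.96 and 31.7 TPM in Kasumi-1, against 60.6, 43.5, 33.9 and 28.01 TPM in NB4. UHRF1, DTL and ORC5 were below untreated in all 6 treated libraries. SHMT1, a serine hydroxymethyltransferase of folate metabolism, had 32.97, 12.1, 16.5 and 20.3 TPM in Kasumi-1 and 58.6, 38.8, 40.9 and 41.2 TPM in NB4. MTHFD1, a folate enzyme that feeds thymidylate synthesis, had 224, 131, 106 and 101 TPM in Kasumi-1 and 247, 186, 157 and 170.4 TPM in NB4. NME1, a nucleoside diphosphate kinase whose reads can be shared with its neighbour NME2, had 660.5, 340.3, 289.5 and 169 TPM in Kasumi-1 and 439.6, 433, 336 and 378 TPM in NB4.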

How the data were processed

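Total RNA of 8 libraries (2 cell lines, 4 conditions each, 1 library per condition) was sequenced, and libraries were grouped by the line and time in their titles. The submitters' processing notes name HISAT2, StringTie and the build hg19; their versions, options and strand setting are not given in the sources used. The deposited TPM and FPKM values are scaled for length and depth, and the deposited coverage is a depth signal per gene, as the file headers name it, used only as a ratio to FPKM. Relative to the commonest ratio of a library, which 12.2% to 14.2% of genes share, the ratio was 0.0319 to 0.0351 for GINS3 and 0.0266 to 0.0292 for PRIM2, and it varied by under 1.5 times over the libraries for 47 of 48 members and by 1.67 times for GINS4. Rows of one gene name were summed. The 14650 of 55765 genes whose mean reached 1 TPM were tested on log2(TPM + 1), which understates changes of low genes, with limma 3.58.1 (R 4.3.3; eBayes with trend, two-sided, Benjamini-Hochberg over all tested genes, threshold 0.05). Shared response and line difference used line and time as terms, and the other 3 tests used line by treatment with times as repeats. The scripts were tested on simulated data. Values per library are given for all 48 members; the rule required them for the largest mean changes of each role, genes called in any test and genes with opposite changes in the lines, and allowed any other member. Members and lists were chosen with earlier results of these data known. Python 3.11.15 with numpy 2.4.6, pandas 2.3.3 and matplotlib 3.10.9 handled the tables and plots. Alternatives were another pseudocount (0.1), other filters (none, 5 TPM), FPKM, other scalings, other model terms and leaving out each library. RefSeq's promoter table has no entry for MCM4, MCM5, GINS4, RPA2, RPA3 and CCNE2.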

Additional observations from a re-analysis of the deposited data

Results flagged for a closer look

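In 7 genes every treated Kasumi-1 library lay below untreated and every treated NB4 library above it, which is why they are listed here; 6.7% of all tested genes have this pattern. The response difference, Kasumi-1 minus NB4 on the log2 scale, was -1.64 for RRM2, -1.54 for CCNE2, -1.15 for FEN1, -1.12 for CDC6, -1.11 for GINS1, -0.88 for PRIM2 and -0.59 for ORC6. None of these differences passed the limma test over all genes (adjusted p = 0.303, 0.413, 0.315, 0.326, 0.264, 0.315 and 0.413 in the same order). The genes were picked by this pattern, so their differences are a description. CCNE2 had mean changes of -0.76 in Kasumi-1 and 0.78 in NB4, and RRM2 of -1.02 in Kasumi-1 and 0.62 in NB4. The mean NB4 changes of CDC6, GINS1, PRIM2 and ORC6 lay between 0.15 and 0.19. FEN1 shares 4265 bases with FADS2 on the same strand, whose change at 6, 12 and 24 h was 0.96, 0.68 and 0.68 in Kasumi-1, against 1.40, 1.69 and 2.10 in NB4; its part in the FEN1 values was not tested.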

How the results depend on the processing

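The counts of members lower in the shared and NB4 tests stayed at 0 under all alternatives run by limma (adjusted p). Counts of members at an adjusted p or by size, and medians, were compared with the main values. Under the alternatives, 183 values lay within 1.5 times (counts) or 0.1 on the log2 scale (medians), and 13 did not. Many of the 183 are counts of 0 that stayed at 0, and some come from fits described below as no check. The tally is therefore no measure of how stable the counts above 0 are. The 2 members lower in the Kasumi-1 test became 8 with no filter, 1 with median-centred values, and 0 to 3 when 1 library was left out. The response difference called 1 member with no filter. In the line difference, the 3 higher members became 5 with TPM recomputed without mitochondrial and the most abundant genes and 2 to 3 without 1 library, and the 22 lower became 18 to 29. At 24 h in Kasumi-1, the 18 members at least 2-fold lower became 11 with FPKM and 11 with the recomputed TPM, and the median became -0.74 and -0.73. The 27 members lower at an unadjusted p in the shared test became 7 with no cell line term. The causes were not tested. The labels give no replicate numbers, so no replicate block was possible; the lines are matched by time, which is a term of the shared and line difference tests. Without its own untreated library the test of a line, and with it the response difference, could not be fitted. The untreated library of the other line enters neither the estimate nor the residual spread of the line tested. The counts of adjusted calls without it, unchanged from the main fit, are therefore no check. Depth is unknown, and values near 0 are least certain.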

Other observations

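Regulators of S-phase entry that are not among the 48 genes gave these values, chosen after their values were seen. GMNN, the inhibitor of CDT1, stood at 96.99, 47.4, 62.9 and 57.1 TPM in Kasumi-1, against 101, 118, 116 and 109.9 TPM in NB4 (untreated, 6, 12 and 24 h). CDKN1B, the CDK inhibitor p27, stood at 133, 68.6, 66.5 and 86.1 TPM in Kasumi-1, against 46.9, 58.6, 67.5 and 55.5 TPM in NB4, below untreated in every treated Kasumi-1 library and above it in every treated NB4 library. E2F7, a repressive E2F, stood at 10.5, 3.54, 2.8 and 3.46 TPM in Kasumi-1 and was listed at 0 in all 4 NB4 libraries. TICRR, a factor of helicase activation, had 33.2, 18.8, 16.99 and 20.8 TPM in Kasumi-1 and 30.1, 42.7, 37.5 and 31.9 TPM in NB4, and CLSPN, a fork checkpoint mediator, had 68.5, 43.7, 42.5 and 40.4 TPM in Kasumi-1 and 33, 41.5, 34.8 and 42.3 TPM in NB4. In all 5 of these genes every treated Kasumi-1 library was below untreated, and none passed the limma test of the response difference (adjusted p between 0.263 and 0.315). E2F7 reached the filter through Kasumi-1 alone. Its difference (log2 -1.43) is therefore its Kasumi-1 change and compares no responses of the lines. Being lower at all 3 times in Kasumi-1 held for 55 of the 74 further genes and for 36% of all tested genes. In Kasumi-1, 9 of the 74 were higher at all 3 times (28.2% of all tested genes), among them CDC25B (60.9, 119, 125 and 146 TPM).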
